A study of Mus musculus with 24 samples.

Results

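The vacuolar proton pump and the lysosome it acidifies were followed through 38 genes in mouse hearts: 16 genes of the pump (symbols beginning with Atp6) and 22 genes of lysosomal enzymes, lysosomal membrane proteins and their regulator Tfeb. The genes were taken by symbol from a list of pump and lysosomal genes, all 38 were found among the 24421 genes counted, and all 38 passed the filter on low counts that left 15804 genes. Messenger RNA was sequenced from 24 heart samples; the mice were males at 14 weeks on chow, of a mixed background that was mostly C57BL/6N with some 129. Acadl and Acadvl encode the long-chain and the very long-chain acyl-CoA dehydrogenase, which open the breakdown of fatty acids in mitochondria. By genotype, 4 libraries were Acadl wt / Acadvl wt, called wild type here, 4 were Acadl Het / Acadvl wt, 3 were Acadl Het / Acadvl Het, 4 were Acadl Het / Acadvl KO, 4 were labelled Acadl KO / Acadvl wt and 5 were labelled Acadl KO / Acadvl Het, so the Acadvl KO hearts and their controls also lacked 1 Acadl allele. The labels do not say how the alleles were made or whether each sample is from its own mouse, so p-values measure the spread between samples, which may be technical.

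The vacuolar proton pump is a rotary machine in the membrane of lysosomes and other acidic compartments. Its V1 part, outside the membrane, splits ATP, and its Vo part, in the membrane, carries protons inward. The low pH this creates is what lysosomal hydrolases need to break down proteins, glycogen, lipids and sugar chains. In heart muscle this route is known above all from storage diseases such as the loss of acid alpha-glucosidase or of Lamp2, which enlarge the heart. Tfeb is a transcription factor that binds E-box motifs of the CLEAR type in promoters of many pump and lysosomal genes, and it is held in the cytoplasm by the kinase mTOR at the lysosome surface.

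Replicate numbers name libraries within a genotype in accession order and pair nothing. Total counts ran from 34320838 to 51743114 per library. Acadl counts were not lower in the 9 libraries labelled Acadl KO (1697 to 2100 CPM, counts scaled to a common library size) than in the other 15 (1324 to 1625 CPM), so those are called labelled Acadl KO throughout, and counts over the whole gene do not show which exons were read. Acadvl was at 495 to 734 CPM in the Acadvl KO libraries, against 1550 to 2429 CPM in the 12 Acadvl wt libraries. The 8 Acadvl Het libraries were at 1039 to 1645 CPM, which overlaps the Acadvl wt range. Among Acadvl wt libraries, those labelled Acadl KO were at 1893 to 2429 CPM and wild type at 1550 to 1593 CPM. There were 2 batches of RNA isolation, with 9 and 15 libraries, and each genotype was in both. The ribosomal precursor Rn45s took 17.3% of the counts of 1 library (Acadl Het / Acadvl Het replicate 1) and at most 0.558% of any other. The liver transcript Alb was over 10 CPM in 6 libraries. These were every Acadl Het / Acadvl Het library (19.8 to 159 CPM), labelled Acadl KO / Acadvl wt replicates 2 and 3, and Acadl Het / Acadvl KO replicate 2. In pieces of heart, fewer cells of a type and less RNA per cell cannot be told apart. Summed markers of cardiomyocytes stood between 66200 and 87200 CPM in the 24 libraries, and those of 14 macrophage genes between 306 and 664 CPM.

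In wild type hearts the pump genes spanned a narrower range of levels than the lysosomal genes. Per exon length, as RPKM (CPM divided by exon length in kilobases, mean of 4 libraries), the pump genes ran from 6.31 for Atp6v1a, the catalytic subunit of V1, to 98.4 for Atp6v0c, the proton-carrying ring subunit of Vo. The lysosomal genes ran from 0.691 for Gla, alpha-galactosidase A, to 625 for Ctsd, the protease cathepsin D, followed by 587 for Psap, the precursor of the saposins that present lipids to hydrolases. Atp6v1h, the regulatory H subunit of V1, was among the lower pump genes at 15.4 RPKM. The value of Atp6v0c is uncertain, since 1117 of its 1151 exon bases also belong to Atp6v0c-ps2 and reads there were counted for both.

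**Figure D1:**
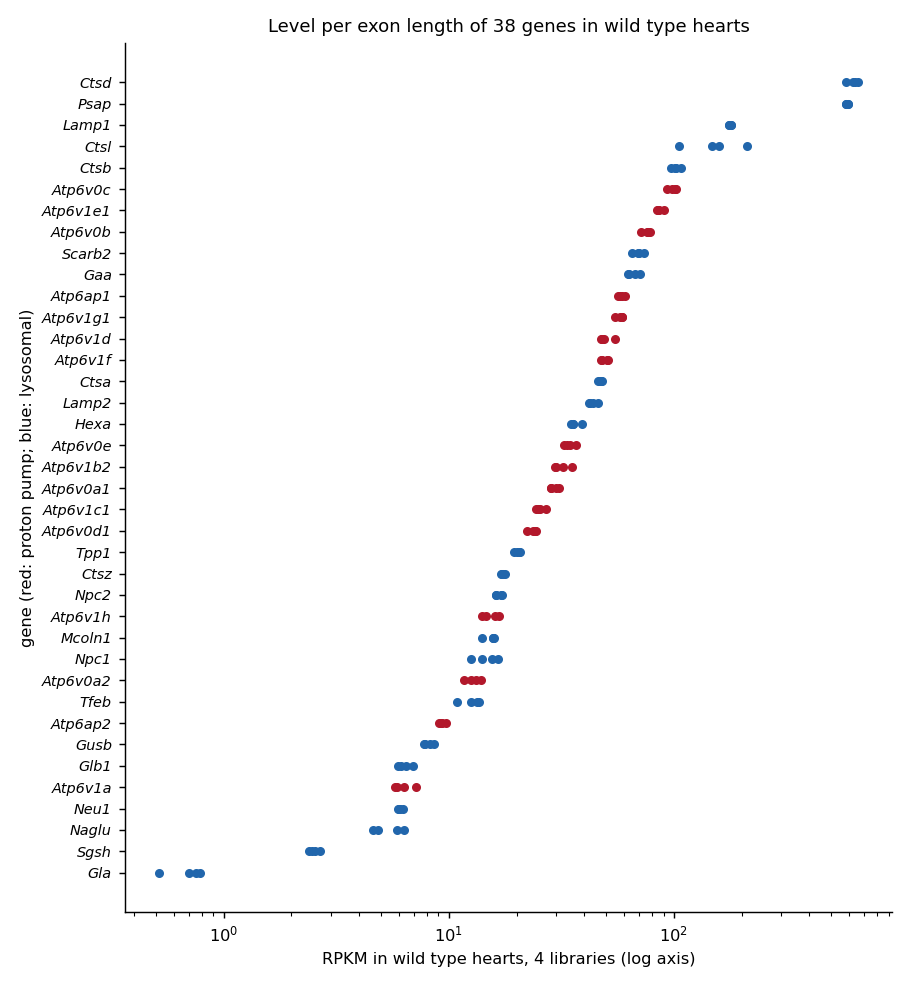
Level of each of the 38 genes in the 4 wild type libraries, in RPKM on a log axis; each point is 1 library, red for proton pump and blue for lysosomal genes. Ctsd (mean 625 RPKM) and Psap (587 RPKM) are at the top, and Gla (0.691 RPKM) is at the bottom.

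The first comparison asked how the pump and the lysosome differed between hearts labelled Acadl KO / Acadvl wt and wild type hearts. Of the 16 pump genes, 9 rose and 0 fell (edgeR quasi-likelihood test, Benjamini-Hochberg adjusted p below 0.05 over all 15804 genes). Over all genes tested, 19.6% rose and 17.6% fell. Of the 22 lysosomal genes, 5 rose and 6 fell. The median log2 difference was 0.22 over the pump genes and -0.05 over the lysosomal genes, against -0.02 over all genes tested. A difference above 0 was fitted for 14 of 16 pump genes, and for 9 of 22 lysosomal genes.

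**Figure D2:**
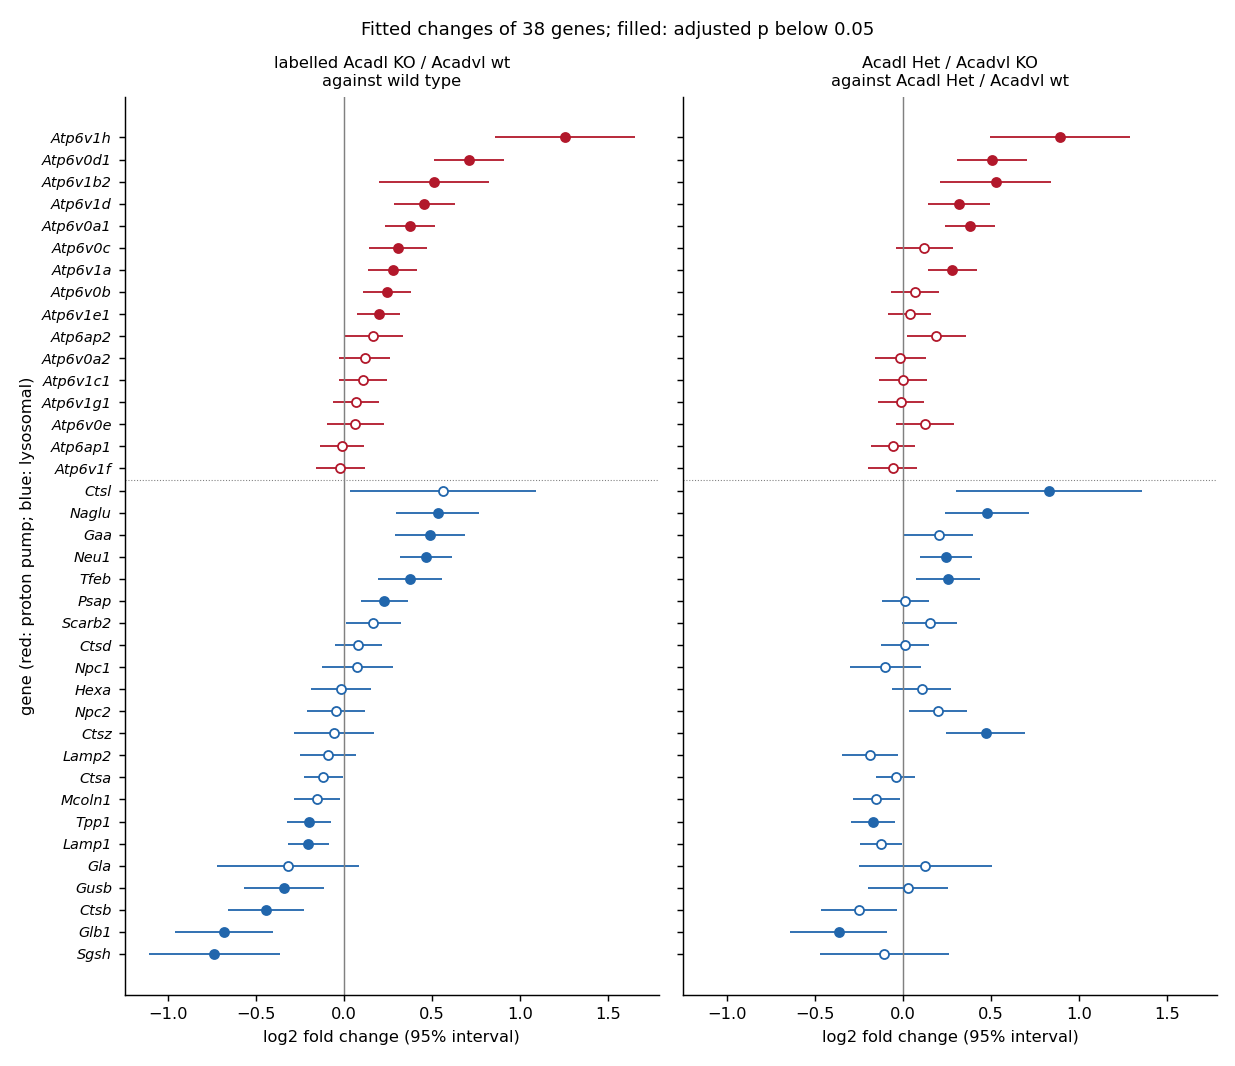
Fitted log2 fold change with its 95% confidence interval for the 38 genes, red for proton pump and blue for lysosomal genes, filled where the adjusted p is below 0.05. At left, labelled Acadl KO / Acadvl wt against wild type, where 9 pump genes are higher and 0 lower while lysosomal genes lie on both sides of 0 (5 higher, 6 lower); at right, Acadl Het / Acadvl KO against Acadl Het / Acadvl wt, where 6 pump genes are higher and 0 lower.

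The V1 part held 5 of the 9 rising pump genes, out of 8 measured. Atp6v1h (mm10 chromosome 1, 5083173 to 5162549) was at 33.2, 29.1, 31.8 and 27.7 CPM in wild type and at 91.3, 93.0, 54.9 and 56.4 CPM in labelled Acadl KO / Acadvl wt. All 4 of the latter were above every wild type library, and replicates 1 and 2 stood apart from 3 and 4. The fitted rise of Atp6v1h was 1.253 on the log2 scale (SE 0.19, a fold of 2.38, edgeR adjusted p = 4.62e-05), the largest log2 difference among the 38 genes. Atp6v1d, a subunit of the central shaft of the rotor, read 77.4, 67.6, 69.3 and 66.9 CPM in wild type and 93.4, 117, 93.2 and 89.5 CPM in the labelled knockouts. The groups of Atp6v1d did not overlap, with a log2 difference of 0.46 (SE 0.08, edgeR adjusted p = 0.000248).

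Atp6v1a, the subunit that splits ATP, read 25.1, 28.3, 23.3 and 22.9 CPM in wild type against 32.0, 32.1, 30.3 and 27.6 CPM in the labelled knockouts. These groups overlapped by 1 library on each side, and Atp6v1a rose by 0.28 (SE 0.07, edgeR adjusted p = 0.00262). Its partner in the catalytic ring, Atp6v1b2, rose by 0.51 (SE 0.15, adjusted p = 0.0106), from 81.0 to 96.8 CPM in wild type to 111 to 156 CPM. Atp6v1e1, a stalk subunit, rose by 0.20 (SE 0.06, adjusted p = 0.0111). The other 3 V1 genes, Atp6v1c1, Atp6v1f and Atp6v1g1, did not pass the test, with differences of 0.11, -0.02 and 0.07.

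The Vo part held the other 4 rising pump genes, out of 6. Atp6v0d1 (mm10 chromosome 8, 105524470 to 105566040), which couples the rotor to the membrane ring, was at 39.6, 36.0, 39.0 and 38.2 CPM in wild type and at 70.6, 66.5, 57.5 and 56.6 CPM in the labelled knockouts. The groups were separate, and the fitted difference was 0.71 (SE 0.09, a fold of 1.64, edgeR adjusted p = 1.09e-05). Atp6v0a1, the subunit that forms the proton channels with the ring, was at 115, 121, 124 and 115 CPM in wild type and at 164, 162, 148 and 146 CPM in the labelled knockouts. It rose by 0.37 (SE 0.07, adjusted p = 0.000248) without overlap. The ring subunits Atp6v0c and Atp6v0b rose by 0.30 (SE 0.08) and 0.24 (SE 0.06). Atp6v0c-ps2, which shares most exon bases of Atp6v0c, differed by the same 0.30 (SE 0.08), so that rise cannot be assigned to either gene. Atp6v0a2 (0.12) and Atp6v0e (0.06) did not pass the test.

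Neither accessory gene passed it. Atp6ap1, which helps the pump assemble, differed by -0.01 (confidence interval -0.135 to 0.115, at the 95% level as for all intervals here), and Atp6ap2, the prorenin receptor and also an assembly protein, by 0.17 (adjusted p = 0.106). For 8 pump genes every labelled knockout library was above every wild type library, and for 0 every one was below. The same held above for 18.1% and below for 17.7% of all genes tested, and for 6 and 7 of the lysosomal genes.

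**Figure D3:**
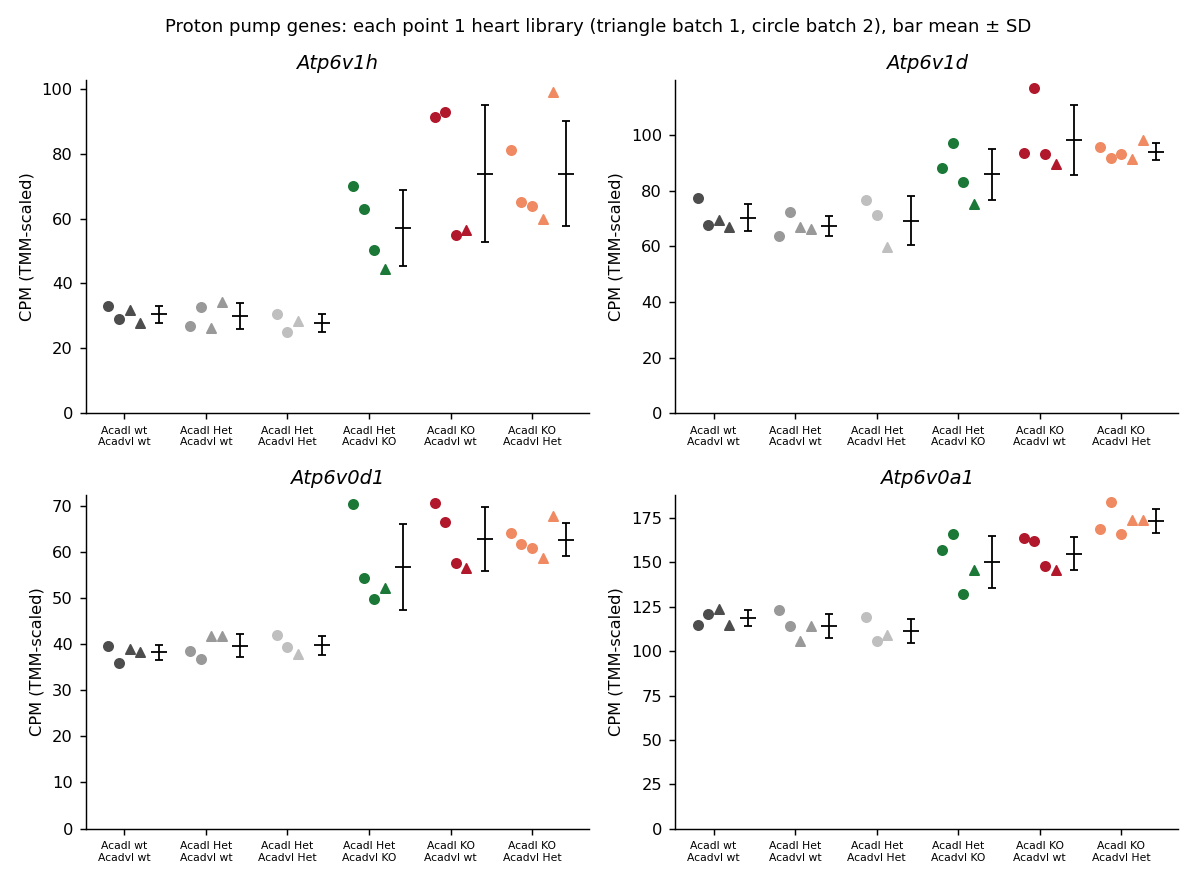
CPM of Atp6v1h, Atp6v1d, Atp6v0d1 and Atp6v0a1 in each of the 24 libraries by genotype, triangles for RNA isolation batch 1 and circles for batch 2, with the mean ± SD of each genotype beside the points. In wild type Atp6v1h sits between 27.7 and 33.2 CPM, and in labelled Acadl KO / Acadvl wt between 54.9 and 93.0 CPM.

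Leaving out any 1 library of the 2 groups kept all 9 pump calls. Within RNA isolation batch 2, which held 3 labelled knockout and 2 wild type libraries, 7 pump genes rose and 0 fell, where 15.7% of all genes rose and 12.8% fell. Of the lysosomal genes 6 rose and 3 fell there: Lamp1 (-0.22), Tpp1 (-0.21), Gusb (-0.36) and Psap (0.235) missed the threshold at about the same size, and Ctsl (0.90) and Scarb2 (0.25) passed it. In batch 1, with 1 against 2 libraries, 0 pump genes were called by edgeR (0.354% of all genes rose), and the 9 genes differed by 0.14 to 0.93, all above 0. Without the 6 libraries over 10 CPM of Alb, 6 pump genes rose, where 13.3% of all genes did. Atp6v1b2 (0.44), Atp6v1e1 (0.16) and Atp6v0b (0.22) lost their call there, at adjusted p between 0.0739 and 0.0883, with differences close to those over all libraries.

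Among the lysosomal genes, those that rose were Neu1, Gaa, Naglu, Psap and Tfeb. Neu1, the sialidase that trims sialic acid from sugar chains (mm10 chromosome 17, 34931253 to 34937297), read 24.1, 22.9, 23.3 and 23.2 CPM in wild type and 36.3, 31.5, 30.0 and 30.6 CPM in labelled Acadl KO / Acadvl wt. The spread in wild type was small beside the gap between groups, and the log2 difference was 0.46 (SE 0.07, edgeR adjusted p = 4.5e-05). Gaa, the acid alpha-glucosidase that degrades glycogen, was at 237, 240, 268 and 255 CPM in wild type and 408, 371, 302 and 323 CPM in the labelled knockouts. The groups did not overlap, with Gaa rising by 0.49 (SE 0.09, adjusted p = 0.00043), and its replicates 1 and 2 were the highest, as for Atp6v1h.

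Naglu, which removes N-acetylglucosamine from heparan sulfate, was at 11.4, 12.1, 14.6 and 15.6 CPM in wild type and 16.2, 19.7, 19.4 and 21.5 CPM in the labelled knockouts. It rose by 0.53 (SE 0.11, edgeR adjusted p = 0.000953), without overlap but with the highest wild type library close to the lowest knockout. Naglu begins 6376 bases after the end of Atp6v0a1 on chromosome 11, so these 2 rising genes are neighbours. Psap rose by 0.23 (SE 0.06, adjusted p = 0.00777).

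Tfeb itself read 30.7, 35.5, 38.0 and 38.6 CPM in wild type and 48.7, 46.0, 44.8 and 45.2 CPM in the labelled knockouts. All 4 knockout libraries were above all wild type libraries, and the log2 difference was 0.37 (SE 0.09, edgeR adjusted p = 0.00225). These are messenger RNA levels, and Tfeb is regulated mainly through where its protein resides, which was not measured.

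The 6 lysosomal genes that fell were Glb1, Sgsh, Ctsb, Gusb, Lamp1 and Tpp1. Glb1, the beta-galactosidase (mm10 chromosome 9, 114401078 to 114474379), was at 15.2, 17.3, 14.8 and 16 CPM in wild type and at 8.50, 8.58, 10.7 and 11.2 CPM in the labelled knockouts. Its log2 difference was -0.685 (SE 0.13, edgeR adjusted p = 0.00043), without overlap, and was lowest in replicates 1 and 2, the libraries in which Atp6v1h and Gaa were highest. Ctsb, the protease cathepsin B, was at 480, 511, 462 and 485 CPM in wild type and 307, 350, 371 and 377 CPM in the labelled knockouts. The groups were again separate, and Ctsb fell by 0.45 (SE 0.10, adjusted p = 0.00195).

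Sgsh, the sulfamidase of heparan sulfate breakdown, fell from between 10.4 and 11.5 CPM to between 4.32 and 8.12 CPM, a log2 difference of -0.74 (SE 0.18, edgeR adjusted p = 0.0027). It lies 57790 bases from Gaa, which rose, on chromosome 11. Sgsh and Naglu act in the same degradation pathway and changed in opposite directions. Gusb, the beta-glucuronidase, read 19.1, 20.3, 19.4 and 21.1 CPM in wild type and 13.7, 14.4, 17.8 and 16.3 CPM in the labelled knockouts, without overlap. It fell by 0.34 (SE 0.11, adjusted p = 0.0165), a call that ended on leaving out replicate 1 or 2 of the labelled knockouts or replicate 2 of wild type. Lamp1, a major glycoprotein of the lysosomal membrane, fell by 0.20 (SE 0.06, adjusted p = 0.00712), and Tpp1, a peptidase, also by 0.20 (SE 0.06, adjusted p = 0.0109), though not without labelled knockout replicate 2.

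The remaining 11 lysosomal genes did not pass the test. Ctsd, the most abundant, differed by 0.08 (interval -0.06 to 0.22), and Lamp2, whose loss causes a cardiomyopathy, by -0.09 (-0.25 to 0.07). Ctsl, the protease cathepsin L, had the largest difference of them at 0.56 (SE 0.25, adjusted p = 0.0841), with wild type libraries from 207 to 416 CPM. Ctsz, Hexa, Npc1 and Npc2 differed by between -0.06 and 0.07, and Gla, at the lowest level, by -0.32 (SE 0.19). Counting ignored strand, so overlapping genes share reads: Ctsb shares 773 exon bases with Fdft1 (-0.46), Sgsh shares 955 with Card14 (-0.72) and Glb1 shares 525 with Tmppe (-0.46), and each value of these pairs is uncertain to that extent.

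**Figure D4:**
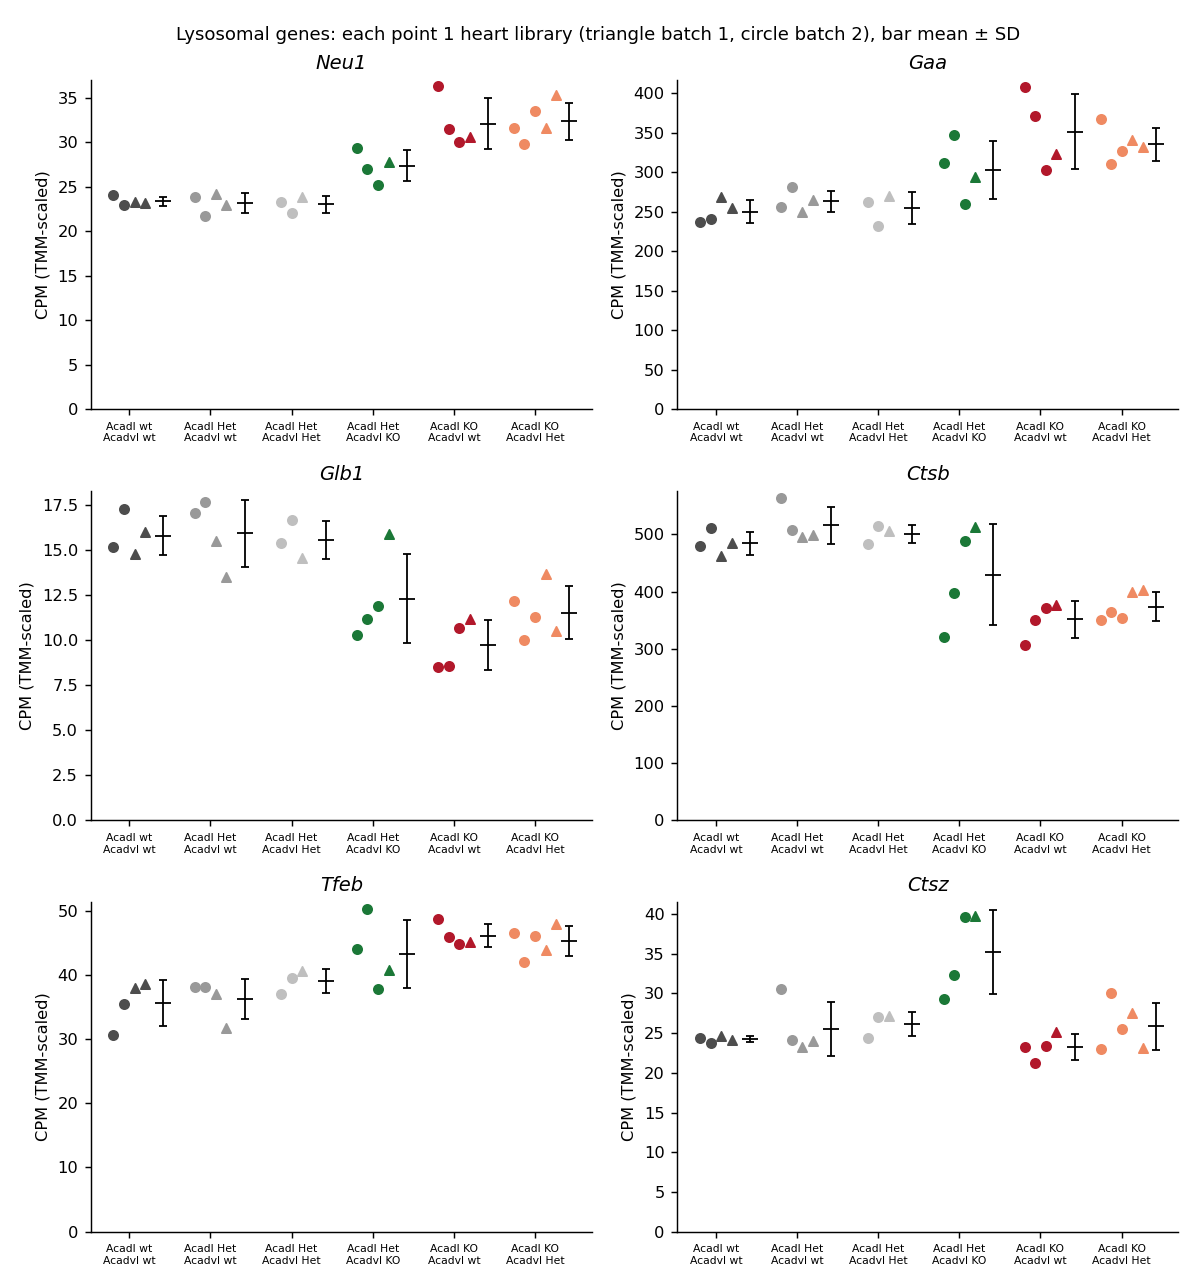
CPM of Neu1, Gaa, Glb1, Ctsb, Tfeb and Ctsz in each of the 24 libraries by genotype, triangles for RNA isolation batch 1 and circles for batch 2, with the mean ± SD of each genotype beside the points. Neu1, Gaa and Tfeb are higher and Glb1 and Ctsb lower in labelled Acadl KO / Acadvl wt than in wild type, while Ctsz is highest in Acadl Het / Acadvl KO (29.3 to 39.8 CPM).

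Markers of cell types were measured beside these changes. The 14 macrophage markers summed to 313 to 384 CPM in labelled Acadl KO / Acadvl wt and to 321 to 364 CPM in wild type, with none of the 14 at 0 and 0 of them called by edgeR (1 at an unadjusted p under 0.05). The 6 erythroid markers summed to 1560 to 3880 CPM against 1330 to 1820 CPM, with 0 called (4 at an unadjusted p under 0.05). The 10 hepatocyte markers summed to 17.9 to 145 CPM against 14 to 25.1 CPM, with 1 called (Apoa1, 3.76). Of these 10, 6 stood at an unadjusted edgeR p under 0.05, and all 10 were above 0 (median 3). Of the 8 cardiomyocyte markers 2 fell and 0 rose, beside 17.6% and 19.6% of all genes, with a median of -0.02. The part of these markers in the results was not tested, beyond the counts given without the libraries over 10 CPM of Alb. There 5 lysosomal genes still rose and 5 fell, where 13.3% of all genes rose and 11.1% fell.

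Promoter sequences are shown for the 4 genes with the smallest p that hold the letters TCACGTG, the E-box part of the CLEAR motif that Tfeb is known to bind, and for Neu1 as the gene of smallest p without them. RefSeq (GRCm38.p6) promoters, from 250 bases before to 50 after each start, were matched for 31 of the 38 genes. TCACGTG on either strand was found in 13 of the 31 (41.9%), against 4.29% of 27025 genes. It overlaps the E-box CACGTG by construction, which 14 of the 31 (45.2%) and 8.09% of all genes held. All genes here means every gene with a promoter entry, whereas the 38 genes all passed the filter on low counts. Motifs of the CLEAR type were also already known from promoters of many pump and lysosomal genes. The contrasts with all genes are therefore descriptions and not tests. The palindrome TCACGTGA was in 7 of 31 (22.6%) and in 1.12% of all genes. The sequences run 5′ to 3′ along the gene, with the match in capitals. Starts are those of the RefSeq table, which for some genes differ from the gene bounds used in counting. The match of Atp6v0d1 spans its RefSeq start, with 4 bases before it and 3 after, and the others end before it.
Atp6v0d1, chr8:105566050-105566079, minus strand: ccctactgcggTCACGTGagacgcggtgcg
Gaa, chr11:119267775-119267874, plus strand: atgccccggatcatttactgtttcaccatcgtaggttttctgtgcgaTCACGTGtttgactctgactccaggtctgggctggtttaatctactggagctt
Glb1, chr9:114400978-114401077, plus strand: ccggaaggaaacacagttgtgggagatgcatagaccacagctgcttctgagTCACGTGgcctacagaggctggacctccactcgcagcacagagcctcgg
Naglu, chr11:101069973-101070072, plus strand: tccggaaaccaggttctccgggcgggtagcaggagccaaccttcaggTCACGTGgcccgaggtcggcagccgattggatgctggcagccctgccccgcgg
Neu1, chr17:34931153-34931252, plus strand: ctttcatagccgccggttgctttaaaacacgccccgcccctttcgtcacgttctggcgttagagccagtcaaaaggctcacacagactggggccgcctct

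The match was present in promoters of genes that rose and of genes that fell. It was found in 3 of the 7 rising pump genes with a promoter entry, in 2 of the 5 rising lysosomal genes (Gaa and Naglu) and in 3 of the 5 falling ones (Glb1, Sgsh and Lamp1). In Glb1 and Naglu the match ends 42 and 67 bases before the RefSeq start, in Gaa 134 bases before it, and Glb1 fell while the others rose. A match is a description of letters and not a measured binding site.

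The 2nd comparison set the 9 labelled Acadl KO libraries against the Acadl Het libraries, as the mean over Acadvl wt and Acadvl Het. Here 11 pump genes rose and 0 fell, with a median of 0.25, while 6 lysosomal genes rose and 8 fell, with a median of -0.06. Over all genes tested, 26.7% rose and 27.9% fell. This comparison shares the labelled Acadl KO / Acadvl wt libraries with the first, so the values are given side by side only. Cell type markers also differed here. Of 10 hepatocyte markers 6 fell (median -2.35), of 8 fibroblast markers 4 fell and of 8 cardiomyocyte markers 3 fell, with 0 rising in each list. Of 14 macrophage markers 2 rose and 2 fell, and of 8 endothelial markers 2 rose and 2 fell. Without the libraries over 10 CPM of Alb, Acadl Het / Acadvl wt were the only controls. There 11 pump genes rose and 0 fell, and 5 lysosomal genes rose and 6 fell, where 19.8% of all genes rose and 20.4% fell. The part of the fibroblast, cardiomyocyte, macrophage and endothelial markers was not tested.

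In the 5 labelled Acadl KO / Acadvl Het libraries Atp6v1h was at 81.1, 65.1, 64.0, 59.9 and 99.1 CPM, against 30.5, 25.0 and 28.4 CPM in Acadl Het / Acadvl Het and 27.0, 32.6, 26.2 and 34.3 CPM in Acadl Het / Acadvl wt. Every labelled knockout library was above every control, and the log2 difference was 1.34 (SE 0.14, edgeR adjusted p = 1.66e-07). Atp6v0a1 was at 169, 184, 166, 174 and 174 CPM, against 119, 106 and 109 CPM in Acadl Het / Acadvl Het. It rose by 0.54 (SE 0.05, adjusted p = 2.79e-08). Atp6v0d1 rose by 0.66 (SE 0.07), and the labelled Acadl KO / Acadvl Het libraries read 64.2, 61.8, 60.9, 58.6 and 67.9 CPM. Replicates 1 and 5 were the highest of the 5 for both Atp6v1h and Atp6v0d1.

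The 2 pump genes called here and not against wild type were Atp6v1c1, which links the stalks (0.20, SE 0.05, edgeR adjusted p = 0.00133), and Atp6ap2 (0.28, SE 0.06, adjusted p = 0.000356). Atp6v1f, Atp6v1g1, Atp6v0a2, Atp6v0e and Atp6ap1 lay between -0.01 and 0.10. Among lysosomal genes Neu1 rose by 0.48 (SE 0.05), Naglu by 0.63 (SE 0.08), Gaa by 0.41 (SE 0.07), Tfeb by 0.28 (SE 0.06), Psap by 0.21 (SE 0.05) and Ctsl by 0.63 (SE 0.18, adjusted p = 0.00589). Glb1 fell by 0.57 (SE 0.09), Sgsh by 0.66 (SE 0.13) and Ctsb by 0.48 (SE 0.07). Gusb, Lamp1, Tpp1, Lamp2 and Ctsa fell by between 0.36 and 0.10, and the call of Ctsa ended in 12 of 16 fits that left out 1 library. Within batch 2, 11 pump genes rose and 0 fell, where 23.3% of all genes rose and 21.7% fell. Within batch 1, 6 rose and 0 fell, where 6.65% of all genes rose and 6.46% fell.

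The 3rd comparison set Acadl Het / Acadvl KO against Acadl Het / Acadvl wt. Of the pump genes, 6 rose and 0 fell, with a median of 0.125, and of the lysosomal genes 5 rose and 2 fell, with a median of 0.02. Over all genes tested 12.9% rose and 11.5% fell, with a median of 0.02. The comparison shares its controls with the 2nd. Of the 8 cardiomyocyte markers 3 fell (Pln, Myl2 and Tnni3) and 0 rose, with a median of -0.22 and 7 below 0, and their part in these counts was not tested.

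Atp6v1h was at 70.1, 63.1, 50.3 and 44.5 CPM in Acadl Het / Acadvl KO, above all 4 control libraries. The log2 difference was 0.90 (SE 0.19, edgeR adjusted p = 0.00172). Atp6v0d1 was at 70.5, 54.4, 49.8 and 52.1 CPM, against 38.6, 36.7, 41.7 and 41.7 CPM in the controls, and rose by 0.51 (SE 0.09, adjusted p = 0.000544). Replicate 1 was the highest library for both genes. Atp6v0a1 was at 157, 166, 132 and 146 CPM, against 123, 114, 106 and 114 CPM, and rose by 0.38 (SE 0.07, adjusted p = 0.00035).

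Atp6v1a was at 29.8, 29.8, 29.6 and 30.6 CPM, against 24.3, 24.2, 24.0 and 24.8 CPM, the tightest pair of groups among the pump genes named here. It rose by 0.28 (SE 0.07, edgeR adjusted p = 0.0037). Atp6v1d rose by 0.32 (SE 0.08, adjusted p = 0.00765), with its libraries at 88.3, 97.0, 83.0 and 75.3 CPM. Atp6v1b2 rose by 0.53 (SE 0.15, adjusted p = 0.0129), although its libraries ran from 165 down to 82.6 CPM and replicate 4 was inside the control range of 75.4 to 88.7 CPM. The ring genes Atp6v0c and Atp6v0b did not pass the test (0.12 and 0.07).

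Within batch 2 of this comparison, 8 pump genes rose and 0 fell, where 8.97% of all genes rose and 7.69% fell. In batch 1, with 1 Acadvl KO library and 2 controls, Atp6v1h differed by 0.57, Atp6v0a1 by 0.42, Atp6v1a by 0.34 and Atp6v0d1 by 0.34. Atp6v1d differed there by 0.19 (0.32 over all libraries) and Atp6v1b2 by 0.06 (0.53 over all libraries).

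Of the lysosomal genes, Naglu was at 20.4, 15.7, 16.2 and 15.5 CPM in Acadl Het / Acadvl KO and at 13.2, 12.2, 12.8 and 11.1 CPM in the controls. It rose by 0.48 (SE 0.11, edgeR adjusted p = 0.00373) without overlap. Neu1 was at 29.4, 27.0, 25.2 and 27.8 CPM against 23.9, 21.7, 24.2 and 23.0 CPM, and rose by 0.25 (SE 0.07, adjusted p = 0.015), a call lost without control replicate 2. Ctsl rose by 0.83 (SE 0.25, adjusted p = 0.0199), with Acadvl KO libraries from 444 to 747 CPM and controls from 188 to 455 CPM. Its call ended without replicate 1 of either group. Tfeb rose by 0.26 (SE 0.09, adjusted p = 0.0357), from 44.1, 50.4, 37.9 and 40.8 CPM in the Acadvl KO libraries against 38.2, 38.2, 37.0 and 31.7 CPM. Those groups overlapped, and the call ended on leaving out any of 3 libraries (Acadvl KO replicate 1 or 2, or control replicate 4).

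Glb1 read 10.3, 11.2, 11.9 and 15.9 CPM in the Acadvl KO libraries and 17.1, 17.7, 15.5 and 13.5 CPM in the controls. It fell by 0.36 (SE 0.13, edgeR adjusted p = 0.0463), a call that ended in 6 of 8 fits that left out 1 library, and the difference was 0.151 within batch 1 and -0.65 within batch 2. Tpp1 fell by 0.17 (SE 0.06, adjusted p = 0.0419), and its call ended in 7 of the 8. Ctsb was at 320, 397, 488 and 513 CPM, from far below the controls (495 to 563 CPM) to among them, and did not pass the test (-0.25, SE 0.10, adjusted p = 0.081). Gaa also did not (0.20, SE 0.09, adjusted p = 0.118), with libraries from 259 to 347 CPM.

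Ctsz, the carboxypeptidase cathepsin Z, rose in this comparison. It was at 29.3, 32.3, 39.6 and 39.8 CPM in Acadl Het / Acadvl KO and at 30.6, 24.1, 23.3 and 24.0 CPM in the controls. The groups overlapped by control replicate 1 alone, and the log2 difference was 0.47 (SE 0.11, edgeR adjusted p = 0.00279). The 14 macrophage markers, none of them at 0, summed to 447, 391, 545 and 664 CPM in the same Acadvl KO libraries and to 353 to 407 CPM in the controls. Of these markers 3 rose (Cd68, Lyz2 and Ctss) and 0 fell, beside 12.9% and 11.5% of all genes. At an unadjusted edgeR p under 0.05 stood 6 of the 14, and 13 were above 0 (median 0.366). The libraries with the most Ctsz were those with the most macrophage marker counts, and the part of these cells in the result was not tested. Within batch 2 Ctsz missed the threshold (0.30, adjusted p = 0.168).

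The direct comparison of labelled Acadl KO / Acadvl wt with Acadl Het / Acadvl KO called 0 of the 16 pump genes by edgeR, with 2 at an unadjusted p under 0.05 (Atp6v1d and Atp6v1e1) and 1 called by DESeq2 (Atp6v1e1, 0.18). Over all genes tested, edgeR called 1.77% higher and 2.66% lower in the labelled Acadl KO hearts, and DESeq2 called 3.21% higher and 4.47% lower. The differences of Atp6v1h (0.37, interval -0.01 to 0.76) and Atp6v0d1 (0.15, -0.05 to 0.34) had intervals that include 0 and also sizeable differences. The 16 pump genes had a median of 0.09, with 15 above 0.

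Of the lysosomal genes, edgeR called 2 lower in labelled Acadl KO / Acadvl wt and 0 higher. DESeq2 called 5 lower and 2 higher (Neu1, 0.226, and Psap, 0.207), beside 4.47% of all genes lower and 3.21% higher by DESeq2. Ctsz was at 23.2, 21.2, 23.4 and 25.2 CPM in labelled Acadl KO / Acadvl wt, below all 4 Acadvl KO libraries. Its log2 difference was -0.60 (SE 0.11, edgeR adjusted p = 0.00404). Gusb was at 18.6, 18.4, 22 and 25.3 CPM in Acadl Het / Acadvl KO, a difference of -0.44 (SE 0.11, adjusted p = 0.0268). Of the 14 macrophage markers 0 were called higher and 4 lower by edgeR, beside 1.77% and 2.66% of all genes. At an unadjusted edgeR p under 0.05 stood 12 of them, and 13 were below 0 (median -0.665). The part of these markers was not tested. Gusb lost its call in 4 of 8 fits that left out 1 library (labelled Acadl KO replicate 1 or 2, Acadvl KO replicate 3 or 4). Both genes missed the threshold within batch 2 (Ctsz -0.57, adjusted p = 0.0782; Gusb -0.36, adjusted p = 0.195) and without the libraries over 10 CPM of Alb, where the differences were as large or larger (Ctsz -0.59, adjusted p = 0.0831; Gusb -0.57, adjusted p = 0.0648).

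Loss of single alleles was examined in the remaining comparisons. Between Acadl Het / Acadvl wt and wild type, edgeR called 0 of the 38 genes, with 0 at an unadjusted p under 0.05 and 0 by DESeq2, and 0% of all genes tested (541 at an unadjusted p under 0.05, 1 by DESeq2). Between Acadl Het / Acadvl Het and Acadl Het / Acadvl wt, 0 of the 38 were called, again with 0 at an unadjusted p under 0.05 and 0 by DESeq2, and 0.00633% of all genes (1 gene, with 448 at an unadjusted p under 0.05 and 13 by DESeq2). Atp6v1h differed by -0.02 (SE 0.185) and -0.12 (SE 0.20) in these comparisons, and Atp6v0d1 by 0.06 (SE 0.09) and -0.0015 (SE 0.10).

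Whether the Acadvl Het allele changed the difference between labelled Acadl KO and Acadl Het was tested as an interaction. It called 0 of the 38 genes by edgeR and 0 by DESeq2, and 0% of all genes by edgeR (817 at an unadjusted p under 0.05, 100 by DESeq2). At an unadjusted p under 0.05 stood 1 pump gene, Atp6v0a1 (0.22, adjusted p = 0.904), and 1 lysosomal gene, Mcoln1, the calcium channel of the lysosomal membrane (0.19, adjusted p = 0.9365).

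The mean log2 ratio to wild type over all genes of a class summarises each library. For the 16 pump genes it ran from -0.05 to 0.05 (median -0.01) in the 11 libraries with no KO label, from 0.21 to 0.43 (median 0.30) in the 9 labelled Acadl KO libraries, and was 0.07 to 0.30 in the 4 Acadvl KO libraries. No library of the first set reached the lowest of either other set. For the 22 lysosomal genes the mean ran from -0.03 to 0.04 with no KO label, from -0.05 to 0.10 in the labelled Acadl KO libraries and from 0.05 to 0.14 in the Acadvl KO libraries. All 4 Acadvl KO libraries were above the first set for the lysosomal genes too, while the labelled Acadl KO libraries overlapped it. The lysosomal mean combines genes that rose with genes that fell.

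**Figure D5:**
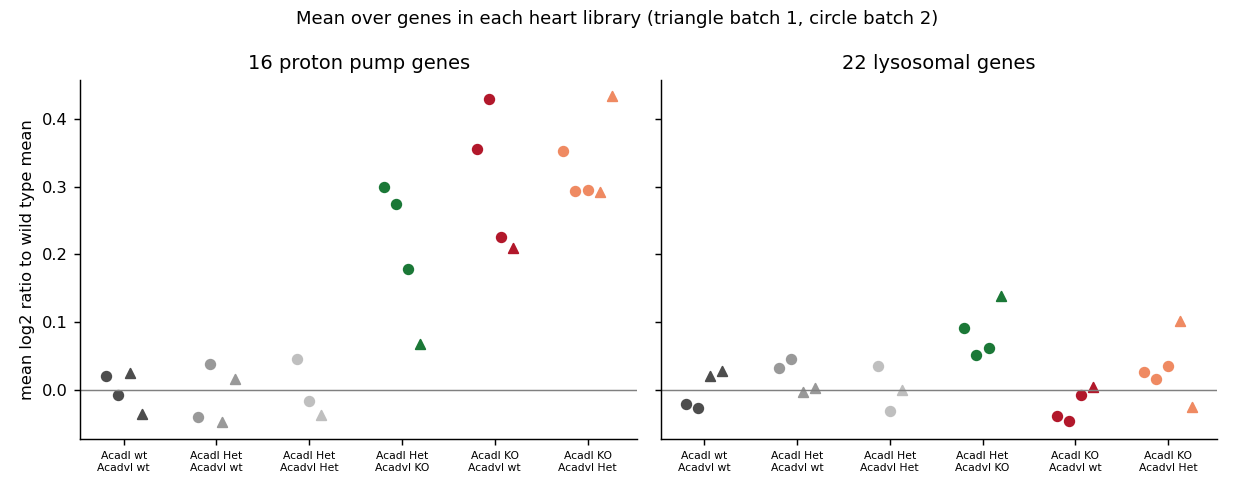
Mean log2 ratio to the wild type mean over the 16 proton pump genes (left) and the 22 lysosomal genes (right) in each library by genotype, triangles for RNA isolation batch 1 and circles for batch 2. The pump mean is 0.21 to 0.43 in the 9 labelled Acadl KO libraries and -0.05 to 0.05 in the 11 libraries with no KO label. The lysosomal mean is -0.03 to 0.04 with no KO label. That of the labelled Acadl KO libraries (-0.05 to 0.10) overlaps this range, and that of Acadl Het / Acadvl KO (0.05 to 0.14) lies above it.

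Other genes of the same machinery were taken from 5 further lists. Their counts are to be read against all genes tested, of which 19.6% rose and 17.6% fell in labelled Acadl KO / Acadvl wt against wild type, and 12.9% rose and 11.5% fell in Acadl Het / Acadvl KO against its controls. Of 17 tested genes for alternative pump subunits and assembly factors, 1 rose and 6 fell in labelled Acadl KO / Acadvl wt against wild type. Dmxl2, a part of the complex that puts V1 and Vo together, rose by 1.10 (SE 0.14), whereas the alternative Vo subunits Atp6v0e2 (-0.55, SE 0.13) and Tcirg1 (-0.52, SE 0.125) and the pump regulator Oxr1 (-0.55, SE 0.08) fell. In Acadl Het / Acadvl KO, 2 rose and 4 fell, with Dmxl2 at 0.65 (SE 0.14) and Oxr1 at -0.42 (SE 0.08). The other that rose there, named after its value was seen, was the alternative Vo subunit Atp6v0d2 (2.06, SE 0.35), which had a mean of only 0.276 CPM over all libraries.

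Of 34 further hydrolases and their cofactors, 6 rose and 9 fell against wild type, beside 19.6% and 17.6% of all genes. Smpd1, acid sphingomyelinase, rose by 1.225 (SE 0.135), and the protease Lgmn fell by 0.67 (SE 0.15), the lipid cofactor Gm2a by 0.65 (SE 0.18) and Pcyox1 by 0.64 (SE 0.145). In Acadl Het / Acadvl KO, 6 rose and 2 fell, beside 12.9% and 11.5% of all genes: Smpd1 rose by 0.76 (SE 0.13) and Galc by 0.49 (SE 0.11), and Ids fell by 0.52 (SE 0.09) and Ppt1 by 0.50 (SE 0.11). Of 25 further membrane proteins, 7 rose and 9 fell against wild type, again beside 19.6% and 17.6% of all genes. The peptide transporter Abcb9 rose by 0.85 (SE 0.135) and Mfsd12 by 0.52 (SE 0.14), while Tmem9 fell by 0.56 (SE 0.10) and Cln3 by 0.50 (SE 0.14). Of these, 6 rose and 5 fell in Acadl Het / Acadvl KO, with Abcb9 at 0.99 (SE 0.135) and Mfsd12 at 0.78 (SE 0.13).

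Of 22 genes that target proteins and vesicles to lysosomes, 9 rose and 3 fell against wild type, beside 19.6% and 17.6% of all genes. The 2 that fell furthest were Sort1, a sorting receptor for hydrolases (-1.03, SE 0.11), and Gnptab, which makes the mannose 6-phosphate tag (-0.68, SE 0.14). The adaptor subunits Ap1b1 (0.64, SE 0.095) and Ap3d1 (0.44, SE 0.08) rose. In Acadl Het / Acadvl KO, 3 rose and 3 fell, shares near the 12.9% and 11.5% of all genes, with Sort1 at -0.71 (SE 0.11) and Gnptab at -0.66 (SE 0.14).

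Of 22 genes of the Tfeb family and of nutrient sensing at the lysosome, 9 rose and 2 fell against wild type (19.6% and 17.6% of all genes), and 6 rose and 4 fell in Acadl Het / Acadvl KO (12.9% and 11.5% of all genes). The folliculin partners Fnip2 (1.499, SE 0.19) and Fnip1 (1.09, SE 0.15), the kinase Mtor (1.36, SE 0.12) and the Ragulator subunit Lamtor3 (0.63, SE 0.08) rose most among those against wild type. The same 4 led the rises in Acadl Het / Acadvl KO, with Mtor at 1.23 (SE 0.12), Fnip2 at 1.17 (SE 0.19), Fnip1 at 0.71 (SE 0.15) and Lamtor3 at 0.53 (SE 0.08). These 2 comparisons share no libraries.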

How the data were processed

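Raw counts per gene were deposited for each of 24 polyA libraries; per the file headers the authors made these counts with featureCounts 1.5.2 on mm10 genes, without strand and with a read counted for every gene it overlaps, while the submitters' processing notes list featureCounts 1.5.3 beside STAR 2.5.1b. Counts were filtered with filterByExpr on 6 genotypes (15804 of 24421 genes), scaled by TMM and fitted in 1 model on genotype plus RNA isolation batch (edgeR 4.0.16, R 4.3.3, robust quasi-likelihood), with two-sided tests adjusted by Benjamini-Hochberg over all genes and a threshold of 0.05. Confidence intervals used 17 residual degrees of freedom, which are not those of the edgeR tests. An interval can therefore include 0 where the unadjusted p is just under 0.05. Atp6ap2 in labelled Acadl KO / Acadvl wt against wild type is a case (edgeR unadjusted p = 0.0492, interval -0.00196 to 0.333). CPM use TMM factors; RPKM divide them by exon length. The fit was tested on simulated counts. The 38 genes, the 5 further lists and the rule for genes shown per library (Tfeb, those of smallest p in the main comparisons, and all called between the knockouts) were chosen with earlier results of these data known. Alternatives were DESeq2 1.42.0 as test or scaling, no batch term, no filter, Rn45s removed, each batch alone, no library over 10 CPM of Alb, and each library left out. All 37 pairs of libraries of 1 genotype differed beyond sampling noise.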

Additional observations from a re-analysis of the deposited data

Results flagged for a closer look

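Among 65 groups of 4 or 5 libraries examined for the genes given per library, 4 held 1 library far from the others; chance flags about 1 in 20. Atp6v1d was at 117 CPM in labelled Acadl KO / Acadvl wt replicate 2, against 89.5 to 93.4 CPM in the other libraries of its group. Naglu was at 20.4 CPM in Acadl Het / Acadvl KO replicate 1, against 15.5 to 16.2 CPM. In Acadl Het / Acadvl wt replicate 1, Ctsz was at 30.6 CPM, against 23.3 to 24.1 CPM, and Gusb at 22.4 CPM, against 20.2 to 20.5 CPM. That library is a control of the Acadvl KO comparison.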

How the results depend on the processing

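No paired analysis was possible because the labels carry no replicate numbers; those used here were assigned in accession order. Leaving out 1 library at a time, 9 to 10 pump and 9 to 13 lysosomal genes were called for labelled Acadl KO / Acadvl wt against wild type, 11 to 12 and 13 to 15 against Acadl Het, 6 to 8 and 4 to 8 for Acadl Het / Acadvl KO against Acadl Het / Acadvl wt, and 0 to 1 and 1 to 5 between labelled Acadl KO / Acadvl wt and Acadl Het / Acadvl KO; counts stayed at 0 for the single-allele comparisons and the interaction. Within batch 1, which leaves 1 library in several groups, 0 pump and 0 lysosomal genes were called against wild type, 6 and 6 against Acadl Het, 0 and 0 for Acadvl KO, and 0 lysosomal genes between the knockouts; Glb1 reversed there for Acadvl KO (0.15, against -0.36 in all libraries), and the cause was not tested. Lysosomal calls for Acadvl KO were 7 with all libraries, where 12.9% of all genes rose and 11.5% fell. They were 4 without the filter (8.2% and 7.97% of all genes) and 3 within batch 2 (8.97% and 7.69%). Without the libraries over 10 CPM of Alb they were 4 (9.43% and 7.98%), so calls were fewer over all genes as well. Between the knockouts DESeq2 called 1 pump and 7 lysosomal genes (2 higher and 5 lower), and lysosomal calls were 0 within batch 2 and 0 without the libraries over 10 CPM of Alb. Without those libraries and with Acadl Het / Acadvl wt as the only controls, an alternative chosen after seeing the data, 11 pump and 11 lysosomal genes were called against Acadl Het; the same exclusion could not be fitted for the single Acadvl allele or the interaction. Over all genes, calls against wild type were 5874 with all libraries, 3871 without those over 10 CPM of Alb and 86 within batch 1. Within batch 1 they were 2112 (of 8639 with all libraries) against Acadl Het and 208 (of 3853) for Acadvl KO. Between the knockouts they were 700 with all libraries, 1214 by DESeq2, 77 without the libraries over 10 CPM of Alb, 54 within batch 2 and 5 within batch 1. For the single Acadvl allele they were 1, with 65 when the batch term was dropped and 13 by DESeq2, and for the interaction 0, with 45 and 100. Causes of these differences in counts were not tested.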
